A study of Caenorhabditis elegans with 8 samples.

Results

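The translation factors and aminoacyl tRNA synthetases of *C. elegans* are described here in day 1 adult *dyf-1(mn335)* mutant and wild-type worms. Members were picked by their gene names and not by their measured values, although the families themselves were chosen with earlier results of these data known. They are the probe sets with exactly 1 gene symbol that begins with eif, ife, ifg or eef, or that ends in ars before a hyphen and a number, as the worm synthetases are named. The rule found 65 of the 29317 probe sets of the array, each for a different gene, of which 33 encode translation factors and 32 encode synthetases. All 65 matched the RefSeq gene table under the same symbol. Another 4 probe sets of these families name several genes each and are not among the members.

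Translation begins when the cap-binding protein eIF4E and its scaffold eIF4G bring an mRNA to the small ribosomal subunit, while eIF2 carries the initiator tRNA in a GTP-bound form and eIF2B, its exchange factor, recharges eIF2 with GTP. The large eIF3 complex holds the small subunit in place for scanning. During elongation eEF1A delivers charged tRNAs, the eEF1B complex reloads eEF1A with GTP, and eEF2 moves the ribosome along the mRNA. Synthetases charge each tRNA with its amino acid, in the cytosol and, mostly through separate nuclear genes, in mitochondria. The worm has several eIF4E genes, called *ife*, some of them used mainly in the germ line, which fills much of an adult hermaphrodite.

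DYF-1 is a ciliary protein needed to build the distal segments of sensory cilia, and the study describes *mn335* as a loss-of-function allele. Total RNA of whole worms, synchronised by bleaching and grown to day 1 of adulthood, was hybridised to Affymetrix gene arrays, with 4 *dyf-1(mn335)* arrays and 4 arrays of wild-type N2, the standard laboratory strain. The study treats the 4 replicates of a strain as biologically independent samples, each a pool of many worms. In whole worms, fewer cells of a type and less RNA per cell cannot be told apart.

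Values are log2 RMA values, a background-corrected and quantile-normalised signal that is relative within a probe set and does not rank different genes. The number of arrays limits the precision. Differences are *dyf-1(mn335)* minus wild-type on this log2 scale, given with the SE of the limma fit and p-values adjusted by the Benjamini-Hochberg method for the whole array, with a gene said to pass at an adjusted p under 0.01. The members gave bright signals, with a median of 9.3 over the 8 arrays against 5.22 for all probe sets, and *ife-5* was the single member with a mean under 5 in both strains. Of all probe sets 11069 were under 5 in every array, against 0 members. The shares over all probe sets given below were not matched for brightness. *dyf-1* itself had values of 6.85, 7.02, 7.30 and 7.48 in the mutant arrays, against 6.26, 6.01, 5.61 and 6.07 in the wild-type arrays, so that it was higher in the mutant (1.18, adjusted p = 0.003, limma) and the strains did not overlap.

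Wild-type replicate 4 stood apart from the other wild-type arrays in these genes and over all probe sets. Over the 65 members it correlated with mutant replicates 1 to 3 at 0.985 to 0.992 and with wild-type replicates 1 to 3 at 0.848 to 0.899, although wild-type replicates 1 to 3 correlated among themselves at 0.968 to 0.989. Over all probe sets these ranges were 0.976 to 0.978, 0.958 to 0.974 and 0.987 to 0.992 for wild-type replicate 4 in the same order. In 48 members (73.8%) its value was nearer to the mean of mutant replicates 1 to 3 than to that of wild-type replicates 1 to 3, as it was in 59.8% of all probe sets. Mutant replicate 4 was nearer to wild-type replicates 1 to 3 in 30 members (46.2%), against 40.4% of all probe sets. Over the members it correlated with mutant replicates 1 to 3 at 0.925 to 0.943, which correlated among themselves at 0.993 to 0.996. Results are therefore given with all 8 arrays and also without wild-type replicate 4, or without both replicate 4 arrays. Wild-type replicate 4 was singled out because its values lay near the mutant arrays, so leaving it out favours larger strain differences. A gene that passes only without it is therefore no independent evidence of a strain difference. Without mutant replicate 4 alone, 1 factor and 0 synthetases passed as lower and 0 of either as higher. In that setting 1756 of all probe sets passed as higher and 721 as lower.

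**Figure D1:**
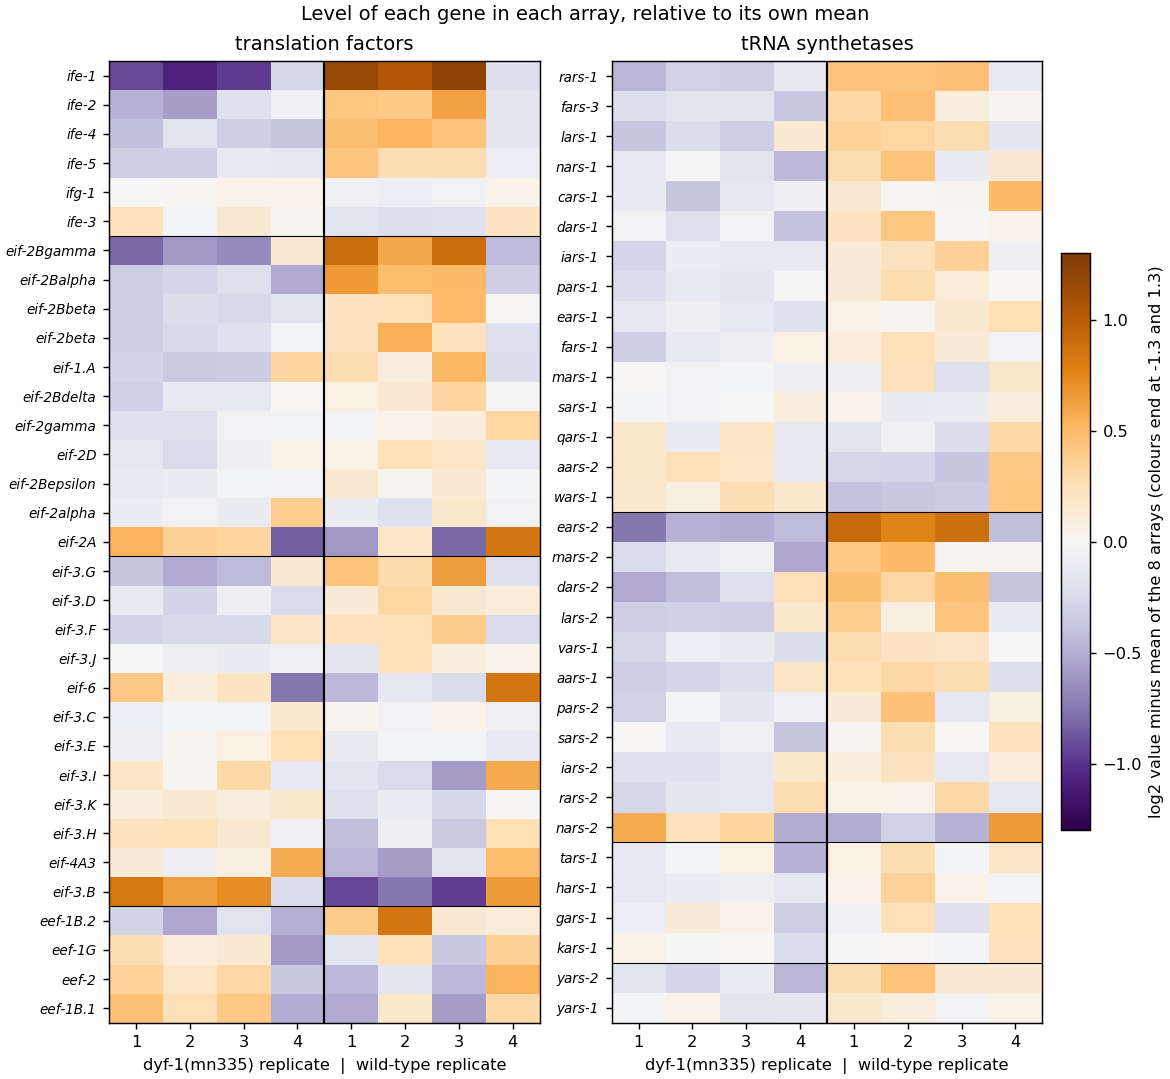
Value of each member in each array, as the log2 value minus the mean of that gene over the 8 arrays, with *dyf-1(mn335)* replicates 1 to 4 left of wild-type replicates 1 to 4 and genes grouped by role. In wild-type replicate 4 many rows, among them *ife-1*, *eif-2Bgamma*, *eif-3.B* and *ears-2*, carry the colour of mutant replicates 1 to 3.

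Across both families 1 member passed the test. Of the 33 translation factors 1 fell in *dyf-1(mn335)* (3.03%) and 0 rose, and of the 32 synthetases 0 passed in either direction. Among all probe sets 10% passed, 6.56% higher and 3.46% lower. With an unadjusted p under 0.05 as the limit, 1 factor was higher and 11 were lower, while 0 synthetases were higher and 11 lower, where 39.0% of all probe sets passed, 19.0% higher and 20.0% lower. The median difference was -0.14 for the factors and -0.26 for the synthetases, beside -0.04 for all probe sets, and 47 of the 65 members (72.3%) lay below 0, against 53.4% of all probe sets. The synthetases leaned further to one side than the factors in these counts, with 27 of 32 (84.4%) below 0 compared with 20 of 33 factors (60.6%), which is a description with no test.

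All 4 mutant arrays lay below all 4 wild-type arrays in 20 members (30.8%, against 11.1% of all probe sets, of which 23.7% separated the strains in either direction), 7 of them factors and 13 synthetases. The reverse held for *eif-3.K*, an eIF3 subunit, alone (1.54%, against 12.6% of all probe sets). At an adjusted p under 0.05 (limma), 6 factors and 4 synthetases were lower in the mutant and 0 were higher, where 24.8% of all probe sets passed, 11.7% lower and 13.1% higher. Without wild-type replicate 4, 8 factors and 2 synthetases passed at 0.01 as lower and 1 of each as higher. That is 15.4% of the members lower and 3.08% higher, where 26.2% of all probe sets passed, 12.9% lower and 13.3% higher. Without both replicate 4 arrays 17 members passed as lower (26.2%, against 16.3% of all probe sets) and 5 as higher (7.69%, against 17.0%), where 33.3% of all probe sets passed.

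**Figure D2:**
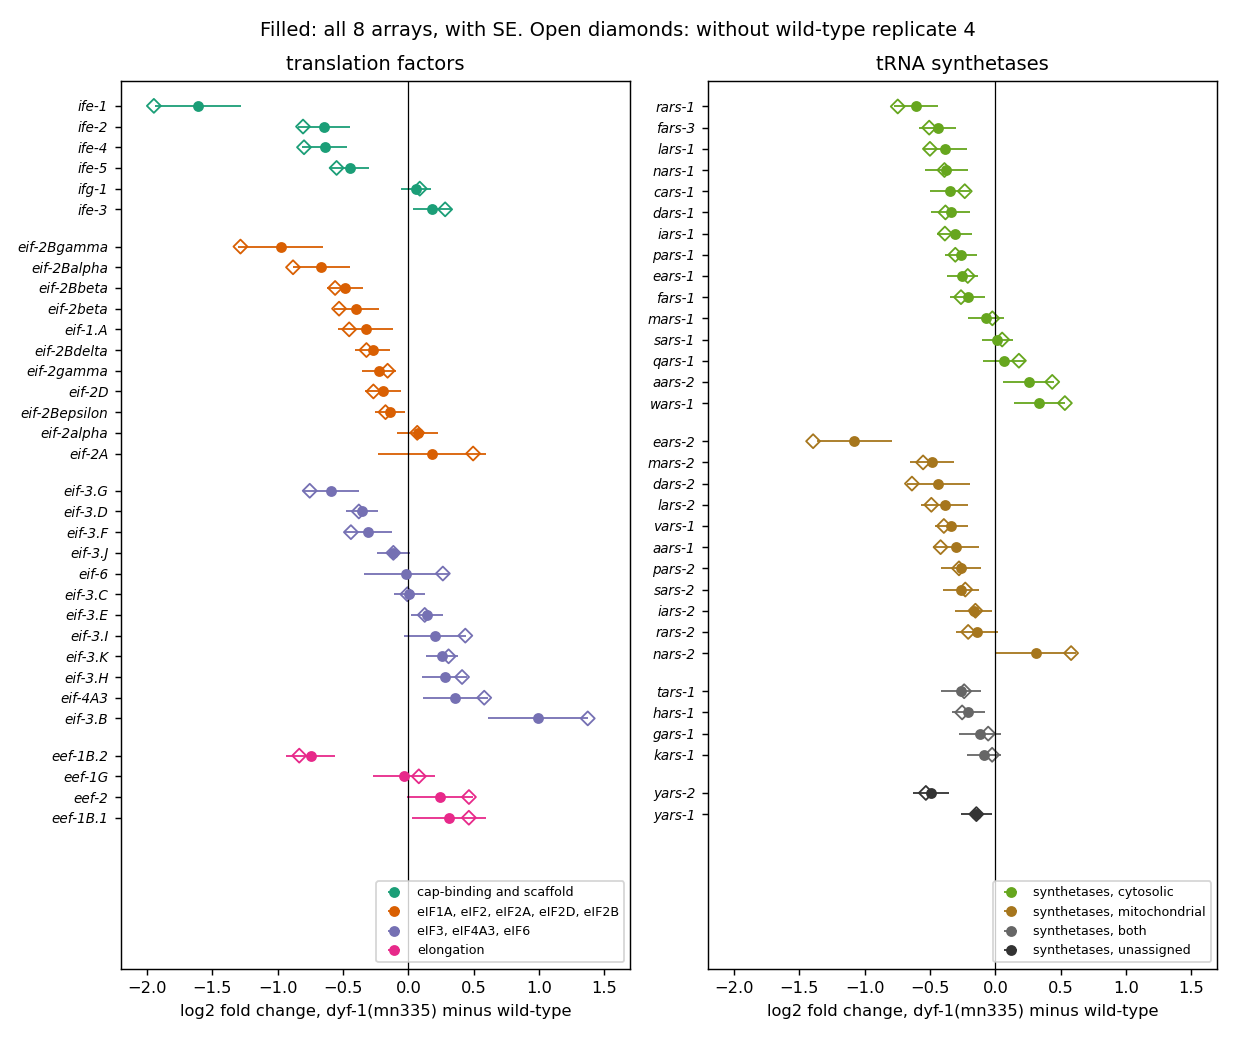
Log2 difference of each of the 65 members, *dyf-1(mn335)* minus wild-type, with its SE (filled points, all 8 arrays) and without wild-type replicate 4 (open diamonds), grouped by role. *ife-1* lies furthest to the left, *eif-3.B* furthest to the right, and 10 of the 11 mitochondrial synthetases lie below 0.

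The cap-binding genes held the member that passed. *ife-1* encodes an eIF4E isoform that is found on germ granules and is needed for normal sperm development. It had values of 7.14, 7.0, 7.10 and 7.80 in *dyf-1(mn335)* and 9.23, 9.10, 9.29 and 7.86 in wild-type worms. The strains did not overlap, but mutant replicate 4 and wild-type replicate 4 were only just apart. *ife-1* averaged 7.26 ± 0.37 in the mutant and 8.87 ± 0.68 in wild-type (SD, n = 4 each), a fall of 1.61 on the log2 scale (-1.61, SE 0.33), so that wild-type was 3.06-fold above the mutant (adjusted p = 0.0082, limma). Without wild-type replicate 4 the difference was -1.95 (adjusted p = 0.0002), and leaving out any single array among replicates 1 to 3 of either strain gave adjusted p-values of 0.026 to 0.031.

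Of the other *ife* genes 3 were lower on average in the mutant without passing. *ife-4*, an isoform known for binding monomethyl caps and for roles in neurons and muscle, gave 7.12, 7.34, 7.19 and 7.14 in the mutant, against 7.99, 8.04, 7.96 and 7.36 in wild-type (-0.64, SE 0.17, adjusted p = 0.027, limma). *ife-2*, a mainly somatic isoform, gave 6.84, 6.74, 7.12 and 7.26 in the mutant, against 7.74, 7.72, 7.94 and 7.16 in wild-type (-0.65, SE 0.20, adjusted p = 0.041). The strains were fully separated for *ife-4*, and for *ife-2* wild-type replicate 4 alone fell among the mutant arrays. *ife-5*, a germline isoform closely related to *ife-1*, was dim, with 4.35, 4.35, 4.56 and 4.54 in the mutant and 5.11, 4.94, 4.94 and 4.60 in wild-type (-0.45, SE 0.15, adjusted p = 0.0501). Without wild-type replicate 4 all 3 passed, with differences of -0.80 for *ife-4*, -0.81 for *ife-2* and -0.55 for *ife-5* (adjusted p = 0.00095, 0.0042 and 0.0079, limma). In that setting 12.9% of all probe sets passed as lower. The files used here do not say whether probes of *ife-1* and *ife-5* share sequence, so cross-hybridisation between these paralogues was not tested.

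*ife-3* and *ifg-1* did not follow the other cap-binding genes in their averages. *ife-3*, the isoform most like eIF4E of other animals, gave 10.14, 9.88, 10.06 and 9.94 in the mutant and 9.75, 9.70, 9.72 and 10.12 in wild-type (0.18, SE 0.14, adjusted p = 0.37, limma). Wild-type replicates 1 to 3 lay below every mutant array, and wild-type replicate 4 lay among the mutant arrays. *ifg-1*, which encodes the scaffold eIF4G, averaged 11.15 ± 0.03 in the mutant and 11.09 ± 0.06 in wild-type (SD, n = 4 each), a difference of 0.06 (SE 0.11, adjusted p = 0.73) that became -0.10 once each array was centred on its median. In all 5 *ife* genes wild-type replicate 4 was nearer to mutant replicates 1 to 3 than to wild-type replicates 1 to 3.

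**Figure D3:**
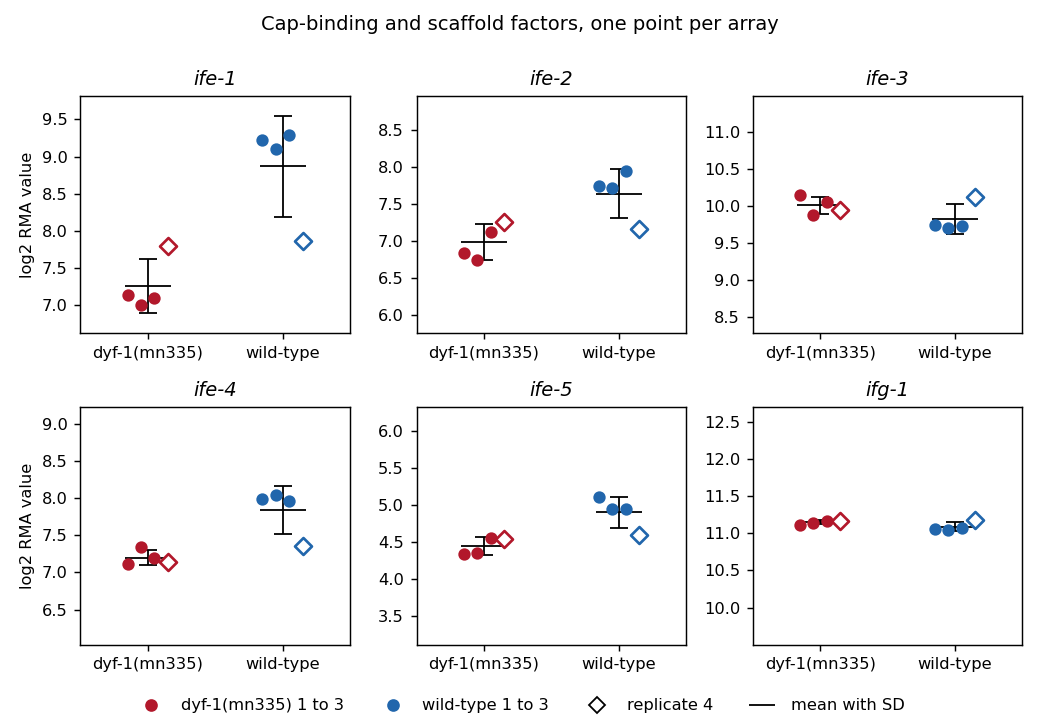
Log2 RMA value of the 5 *ife* genes and *ifg-1* in each array, with *dyf-1(mn335)* left of wild-type in each panel, bars for the mean and SD of 4 arrays, and axes of equal span but different offset. Replicate 4 is drawn apart, and for *ife-1* the values of both replicate 4 arrays, 7.80 and 7.86, nearly meet.

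Germline and sperm markers were measured beside these genes. Of 20 germ line and oocyte markers 0 passed and their median difference was 0.02. Without both replicate 4 arrays, where 17.0% of all probe sets were higher and 16.3% lower, 4 of these markers were higher and 1 lower. Their summed linear signal ranged over 39910 to 52593 in the mutant arrays and 43028 to 56216 in the wild-type arrays, with replicate 4 at the lowest mutant and at the highest wild-type value. The 10 sperm markers had a median difference of -0.46, with 1 of them lower at the threshold (*gsp-3*, a sperm phosphatase, -0.87), and their summed linear signal was 333 to 379 in the mutant and 460 to 645 in wild-type, without overlap. Of the sperm markers 3 were under 5 in every array. In wild-type replicate 4 the summed sperm signal was the highest wild-type value, 645, while *ife-1*, at 7.86, was at its lowest wild-type value. Without wild-type replicate 4, 2 sperm markers passed as lower and 8 lay below 0, where 12.9% of all probe sets passed as lower. The part of germ cell or sperm content in the *ife-1* result was not tested.

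Among the factors that place the initiator tRNA, the members that lay furthest below wild-type were subunits of eIF2B. *eif-2Bbeta*, a regulatory subunit, gave 8.08, 8.19, 8.15 and 8.23 in the mutant, against 8.63, 8.64, 8.89 and 8.41 in wild-type (-0.48, SE 0.14, adjusted p = 0.032, limma), with no overlap. *eif-2Balpha*, another regulatory subunit, gave 9.94, 9.99, 10.08 and 9.76 in the mutant, against 10.94, 10.76, 10.78 and 9.96 in wild-type (-0.67, SE 0.22, adjusted p = 0.0498). *eif-2Bgamma*, which belongs to the catalytic part of the complex, gave 8.54, 8.75, 8.69 and 9.49 in the mutant, against 10.26, 9.95, 10.25 and 8.93 in wild-type (-0.98, SE 0.32, adjusted p = 0.054), and here both replicate 4 arrays crossed into the range of the other strain. None of the 5 eIF2B subunits passed with all 8 arrays. *eif-2Bdelta* (-0.27) and *eif-2Bepsilon* (-0.14), the catalytic subunit itself, were closer to 0, and the median of the 5 was -0.48. Without wild-type replicate 4, *eif-2Bbeta* (-0.56), *eif-2Balpha* (-0.88) and *eif-2Bgamma* (-1.29) passed, with adjusted p-values of 0.0071, 0.00094 and 0.0025 (limma). The share of all probe sets that passed as lower was then 12.9%.

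The subunits of eIF2 itself did not pass with all 8 arrays. *eif-2beta*, which binds other initiation factors, differed by -0.40 (adjusted p = 0.12, limma), the GTP-binding *eif-2gamma* by -0.23, and *eif-2alpha*, the subunit that stress kinases phosphorylate, by 0.07, or -0.08 with arrays centred on their medians. *eif-1.A*, a scanning factor, differed by -0.33, and *eif-2D*, which can place tRNA without eIF2, by -0.19. *eif-2A* (0.18) varied within each strain, with 11.03, 10.85, 10.83 and 9.65 in the mutant and 9.90, 10.69, 9.70 and 11.35 in wild-type worms. Of these 11 genes 9 lay below 0, and their median was -0.27. Without both replicate 4 arrays *eif-2beta* (-0.59, adjusted p = 0.0089, limma) and *eif-1.A* (-0.62, adjusted p = 0.0073) passed as lower, and *eif-2A* differed by 0.81 (adjusted p = 0.031). The share of all probe sets that passed as lower was then 16.3%.

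The 10 eIF3 subunits found by the name rule were spread to both sides of wild-type. Of these 10, 4 lay below 0, 0 passed, and the median was 0.08. The median of the whole class with *eif-4A3* and *eif-6* was also 0.08 and turned to -0.08 with arrays centred on their medians. Below 0 lay 5 of the 10 once wild-type replicate 4 was left out. *eif-3.D*, which in mammals can itself bind caps, gave 9.39, 9.22, 9.44 and 9.27 in the mutant, against 9.64, 9.84, 9.66 and 9.63 in wild-type (-0.36, SE 0.12, adjusted p = 0.060, limma), with no overlap and with wild-type replicate 4 among the other wild-type arrays. *eif-3.G*, an RNA-binding subunit, gave 7.77, 7.62, 7.71 and 8.28 in the mutant, against 8.59, 8.43, 8.78 and 7.94 in wild-type (-0.59, SE 0.22, adjusted p = 0.075). *eif-3.D* thus separated the strains in every array, whereas *eif-3.G* did so only among replicates 1 to 3 and passed as lower without both replicate 4 arrays (-0.90, adjusted p = 0.0010).

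*eif-3.B*, a core subunit of the complex, had the most positive difference of the members and was singled out after its values were seen. It gave 9.93, 9.74, 9.83 and 8.87 in the mutant, against 8.17, 8.35, 8.14 and 9.75 in wild-type (0.99, SE 0.38, adjusted p = 0.086, limma). Replicates 1 to 3 of the strains were far apart and both replicate 4 arrays lay on the side of the other strain, so that without wild-type replicate 4 the difference was 1.37 (adjusted p = 0.0027). The other subunits differed by -0.31 (*eif-3.F*) to 0.28 (*eif-3.H*), and without both replicate 4 arrays *eif-3.F* passed as lower (-0.56, adjusted p = 0.0042, limma). *eif-4A3*, the helicase of the exon junction complex, differed by 0.36. *eif-6*, which keeps ribosomal subunits apart, differed by -0.01, with 9.06, 8.75, 8.85 and 7.89 in the mutant and 8.20, 8.51, 8.40 and 9.49 in wild-type, again with each replicate 4 array at the far end of its strain. The difference of *eif-6* was 0.26 without wild-type replicate 4 and 0.51 without both replicate 4 arrays (adjusted p = 0.018, limma), so that its sign rested on these arrays.

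Of the 4 elongation factor genes 0 passed, and the lowest p-value was that of *eef-1B.2*, an exchange factor for eEF1A. It gave 7.96, 7.71, 8.07 and 7.75 in the mutant, against 8.64, 9.10, 8.39 and 8.36 in wild-type (-0.75, SE 0.19, adjusted p = 0.019, limma), with no overlap, and passed without wild-type replicate 4 (-0.84, adjusted p = 0.0074). Its paralogue *eef-1B.1* gave 9.16, 8.96, 9.10 and 8.18 in the mutant, against 8.18, 8.88, 8.11 and 9.0 in wild-type (0.31, SE 0.28, adjusted p = 0.44). The exchange factor genes thus had averages on opposite sides of wild-type, and *eef-1B.1* overlapped between the strains while *eef-1B.2* did not. Without both replicate 4 arrays *eef-1B.1* differed by 0.69 (adjusted p = 0.031), and *eef-1B.2* missed the threshold (adjusted p = 0.013).

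The other elongation factors overlapped between the strains, and their differences depended on the replicate 4 arrays. *eef-2*, the translocase, gave 11.66, 11.50, 11.63 and 10.96 in the mutant, against 10.88, 11.17, 10.87 and 11.85 in wild-type (0.24, SE 0.25, adjusted p = 0.50, limma). Its difference was 0.46 without wild-type replicate 4 (adjusted p = 0.087) and 0.62 without both replicate 4 arrays, where it passed as higher (adjusted p = 0.0057). *eef-1G*, the gamma subunit of the exchange complex, gave 11.84, 11.70, 11.72 and 10.98 in the mutant, against 11.41, 11.82, 11.21 and 11.94 in wild-type (-0.04, SE 0.24, adjusted p = 0.93), a difference that changed sign under several settings, among them without wild-type replicate 4 (0.08) and without both (0.27). For *eef-1B.1*, *eef-2* and *eef-1G* mutant replicate 4 was the lowest mutant array and wild-type replicate 4 the highest wild-type array. The germ line and oocyte markers had a like order, with a median deviation from each gene's mean of 0.13, 0.02, 0.10 and -0.32 in the mutant arrays and -0.10, 0.05, -0.08 and 0.28 in the wild-type arrays, and its part in the elongation factor values was not tested. The probe sets shared by *eef-1A.1* and *eef-1A.2*, the genes of eEF1A, cannot be assigned to either gene and differed by -0.30 and 0.08 (adjusted p = 0.15 and 0.77).

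Of the synthetases 15 are cytosolic, 11 mitochondrial, 4 serve both compartments from 1 gene, and *yars-1* and *yars-2*, for tyrosine, were left without a compartment. None of the 15 cytosolic synthetases passed; 11 lay below 0, with a median of -0.27, and in 7 of them (46.7%, against 11.1% of all probe sets) all mutant arrays lay below all wild-type arrays. *rars-1*, for arginine, gave 9.43, 9.59, 9.56 and 9.75 in the mutant, against 10.33, 10.32, 10.34 and 9.77 in wild-type (-0.61, SE 0.17, adjusted p = 0.027, limma). *fars-3*, a subunit of the phenylalanine enzyme, gave 10.09, 10.13, 10.14 and 9.94 in the mutant, against 10.60, 10.75, 10.39 and 10.32 in wild-type (-0.44, SE 0.14, adjusted p = 0.046). Neither overlapped between the strains, although wild-type replicate 4 of *rars-1* lay only just above mutant replicate 4. *rars-1* passed without wild-type replicate 4 (-0.75, adjusted p = 0.0017), and *fars-3* did not (-0.51, adjusted p = 0.016). The cytosolic enzymes with the most positive differences were those for tryptophan (*wars-1*, 0.34) and alanine (*aars-2*, 0.25), of which *wars-1* passed as higher without wild-type replicate 4 (0.53, adjusted p = 0.0060), while the others differed by -0.39 (*lars-1*) to 0.07 (*qars-1*). Without both replicate 4 arrays *aars-2* passed as higher (0.52, adjusted p = 0.0053, limma) and *lars-1*, for leucine, as lower (-0.61, adjusted p = 0.0026). In that setting 17.0% of all probe sets passed as higher and 16.3% as lower.

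The mitochondrial synthetases also had 0 members past the threshold, a median of -0.30, and 10 of 11 below 0. *ears-2*, which charges mitochondrial tRNA with glutamate, had the most negative difference among the synthetases. It gave 7.91, 8.17, 8.16 and 8.23 in the mutant, against 9.57, 9.42, 9.54 and 8.24 in wild-type (-1.08, SE 0.28, adjusted p = 0.024, limma). The strains were separated by over 1 log2 unit in replicates 1 to 3 and by almost nothing between the replicate 4 arrays, and without wild-type replicate 4 the difference was -1.40 (adjusted p = 0.00014). *mars-2*, for methionine, gave 8.63, 8.75, 8.83 and 8.35 in the mutant, against 9.28, 9.39, 8.91 and 8.92 in wild-type (-0.49, SE 0.17, adjusted p = 0.063), with no overlap.

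*nars-2*, for asparagine, was the mitochondrial synthetase above 0 (0.31, adjusted p = 0.48, limma), with 9.08, 8.73, 8.84 and 7.99 in the mutant and 8.0, 8.21, 8.04 and 9.16 in wild-type. Both replicate 4 arrays of *nars-2* lay on the side of the other strain, and its difference was 0.58 without wild-type replicate 4 (adjusted p = 0.086) and 0.80 without both, where it passed as higher (adjusted p = 0.0021). The remaining mitochondrial enzymes lay between -0.44 (*dars-2*, for aspartate) and -0.14 (*rars-2*, for arginine). Among them *dars-2* (-0.80), *lars-2* (-0.61) and *aars-1* (-0.54) passed as lower without both replicate 4 arrays (adjusted p = 0.0018, 0.0062 and 0.0042, limma). The share of all probe sets lower in that setting was 16.3%. Of the enzymes that serve both compartments 0 passed and 4 of 4 lay below 0, with a median of -0.16, whereas without both replicate 4 arrays 2 of 4 lay below 0 and the median was -0.05. *hars-1*, for histidine, gave 8.92, 8.97, 8.98 and 8.91 in the mutant, against 9.11, 9.39, 9.11 and 9.01 in wild-type (-0.21, SE 0.13, adjusted p = 0.26), with no overlap. *tars-1*, for threonine, gave 10.07, 10.16, 10.26 and 9.71 in the mutant, against 10.26, 10.45, 10.15 and 10.38 in wild-type (-0.26, SE 0.15, adjusted p = 0.24). *gars-1*, for glycine, differed by -0.12 and *kars-1*, for lysine, by -0.09. *yars-2* (-0.49, adjusted p = 0.031) and *yars-1* (-0.14, adjusted p = 0.40) did not pass either.

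For 10 amino acids the mitochondrial and the cytosolic enzyme were both measured, and the difference between them within each array was compared between the strains with an exact two-sided permutation test, whose smallest p for 4 arrays against 4 is 0.0286. The change in this difference, mutant minus wild-type, was below 0 for 6 amino acids and above 0 for 4, with a median of -0.05. For arginine the mutant arrays had a within-array difference of -0.64 ± 0.12 and the wild-type arrays of -1.11 ± 0.17 (SD). The change was 0.47 (exact permutation p = 0.0286, the smallest this test can give, and 0.286 after Benjamini-Hochberg adjustment over the 10 pairs). For glutamate it was -1.21 ± 0.16 in the mutant and -0.39 ± 0.72 in wild-type, a change of -0.82 (exact permutation p = 0.143). The next smallest p-values were those of serine (-0.28, exact permutation p = 0.0571) and methionine (-0.41, exact permutation p = 0.0857). For asparagine the change was 0.69 (exact permutation p = 0.114) and for alanine -0.56 (exact permutation p = 0.171), and for leucine and proline it was within 0.01 of 0. Leaving out wild-type replicate 4 gave a change of -1.18 for glutamate, 0.97 for asparagine and -0.85 for alanine. With 4 arrays a strain none of the 10 pairs could pass at 0.01, since 0.0286 is the smallest p even before adjustment. The lack of a passing pair therefore does not show that the compartments moved alike.

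**Figure D4:**
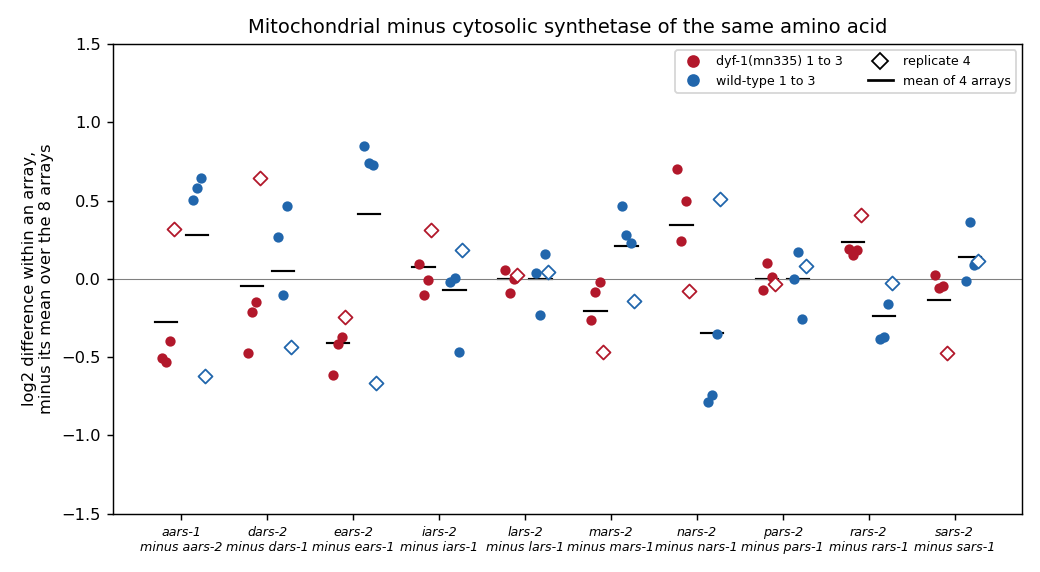
Log2 value of the mitochondrial minus the cytosolic synthetase within each array, minus its mean over the 8 arrays, for 10 amino acids, with *dyf-1(mn335)* left of wild-type and bars at the mean of 4 arrays. The strains do not overlap for arginine (*rars-2* minus *rars-1*), and wild-type replicate 4 lies apart from the other wild-type arrays for alanine, glutamate and asparagine.

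Other genes of translation outside the name rule gave few calls with all 8 arrays, where 6.56% of all probe sets were higher and 3.46% lower. Of 15 other cytosolic factors 0 passed in either direction (median 0.06), of 5 mitochondrial translation factors 0 passed (median -0.43), and of 16 regulators of translation 0 passed (median 0.19). The worm's eIF5A genes differed to opposite sides, *iff-1*, the germline form, by -0.88 (adjusted p = 0.017, limma) and *iff-2* by 0.71 (adjusted p = 0.020). *tufm-2*, a mitochondrial elongation factor Tu, differed by -0.80 (adjusted p = 0.020) and *mnk-1*, a kinase that phosphorylates eIF4E, by 0.59 (adjusted p = 0.044). Cytosolic ribosomal protein genes had 3 lower and 0 higher of 75 (median -0.36), and mitochondrial ribosomal protein genes 2 lower and 0 higher of 70 (median -0.56). Without wild-type replicate 4 the counts were 27 of 75 lower (36.0%) and 1 higher for the cytosolic and 34 of 70 lower (48.6%) and 1 higher for the mitochondrial ribosomal protein genes, against 12.9% lower and 13.3% higher of all probe sets. The mitochondrial translation factors then had 2 of 5 lower, the other cytosolic factors 1 of 15 higher and 1 lower, and the regulators 1 of 16 higher. Without both replicate 4 arrays 4 of 15 other cytosolic factors were higher and 1 lower, and 4 of 16 regulators were higher and 0 lower. In that setting 37 of 75 cytosolic and 45 of 70 mitochondrial ribosomal protein genes were lower, and 3 of each were higher. Of the mitochondrial translation factors 3 of 5 were then lower and 0 higher. Among all probe sets 17.0% were higher and 16.3% lower without both replicate 4 arrays. Markers of other tissues moved between the strains as well, with 6 of 10 neuronal and 5 of 10 moulting epidermis markers higher and 0 lower, 1 of 10 body wall muscle markers higher, and 1 higher and 2 lower of 9 intestinal markers. With wild-type replicate 4 left out, 6 of 10 muscle, 7 of 10 moulting epidermis and 8 of 10 neuronal markers were higher, and the intestinal counts were the same. Their part in the values of the members was not tested.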

How the data were processed

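The deposited log2 values, which the authors made with RMA (oligo package), were used as given for all 8 arrays. Strains were taken from the sample labels and gene names from the platform annotation. The genome build was not given in the sources used here, and the probe-level files were not analysed here. The strains were compared, without covariates and over all 29317 probe sets, by limma 3.58.1 (lmFit, then eBayes; R 4.3.3). Tables and plots were made with Python 3.11.15, pandas 2.3.3 and matplotlib 3.10.9, and the fit was tested on simulated data. The simulated noise was independent between arrays and did not imitate the replicate 4 arrays, so it does not bear on them. Members and lists were chosen with earlier results of these data known. Named array by array were every member that passed, the 2 members of each role class with the smallest p, and all *ife* and *eef* genes; *ifg-1*, *eif-2Bgamma*, *eif-2A*, *eif-3.B*, *eif-6* and *nars-2* were added after their values were seen. Compartments came from general knowledge of worm genes. *yars-1* and *yars-2*, listed as cytosolic and mitochondrial in the plan, were left without one because their compartments could not be settled. Alternatives were another threshold, a filter on mean log2 values under 5 (15520 kept), a trended and robust eBayes, array weights, median centring, cyclic loess, a replicate block and leaving out arrays. The sample labels do not say whether replicate numbers pair the arrays.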

Additional observations from a re-analysis of the deposited data

Results flagged for a closer look

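Among the 130 groups of 4 arrays (65 members in 2 strains), 17 had an array whose gap to the nearest other array, as a share of the range of its strain, exceeded the limit of Dixon's test for 4 values. Chance flags about 1 in 20 groups. In each of the 17 the array was replicate 4. No cause was tested.

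Mutant replicate 4 was high for *eif-1.A* (0.907), *eif-2alpha* (0.896), *eif-3.F* (0.926), *iars-2* (0.847) and *lars-2* (0.988), and low for *eif-2A* (0.854). Wild-type replicate 4 was low for the cap-binding genes *ife-1* (0.867) and *ife-4* (0.875) and for the synthetases *lars-1* (0.858), *rars-1* (0.962), *aars-1* (0.887) and *ears-2* (0.885). It was high for *ife-3* (0.892), *eif-3.B* (0.871), *aars-2* (0.864), *wars-1* (0.933) and *kars-1* (0.862).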

How the results depend on the processing

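The fall of *ife-1* kept its call with array weights, centring, cyclic loess, the filter, the trended and robust eBayes and without replicate 4 of either or both strains. It was lost with the replicate block (adjusted p = 0.053, limma) and without any single array among replicates 1 to 3. The sample labels do not say whether same-numbered samples belong together. Correlations of same-numbered deviations were -0.31, 0.01, -0.20 and -0.57, which cannot settle it. The block gave 236 higher and 79 lower calls in all and 0 lower factors. Lower factors numbered 6 at an adjusted p under 0.05, 11 with array weights, 2 with centring and 11 without both replicate 4 arrays, and higher ones 1 with weights and 2 without both. Lower synthetases numbered 4 at 0.05, 9 with weights and 6 without both, and higher ones 2 with weights and 3 without both. By compartment, lower cytosolic ones were 2, 3 and 2 and lower mitochondrial ones 1, 5 and 4 under these settings, while 2 cytosolic ones were higher with weights and 2 without both, and 1 mitochondrial one without both. All probe sets gave 3848 higher and 3419 lower at 0.05, 5489 and 5391 with weights, 4977 and 4781 without both, and 1653 lower with centring. Leaving out each array gave 0 to 1 higher and 0 to 8 lower factors, 0 to 1 higher and 0 to 2 lower synthetases, 0 to 1 either way among cytosolic and 0 to 1 lower among mitochondrial ones, and 932 to 3893 higher and 324 to 3788 lower probe sets in all; the high ends were reached without wild-type replicate 4. Centring moved the median of all probe sets to -0.19 and the share of higher calls to 47.8%, against 65.5% as deposited and 59.5% with cyclic loess. It gave medians of -0.30 for factors, -0.42 for synthetases, -0.43 for eIF1 to eIF2B, -0.079 for eIF3 to eIF6, -0.42 for cytosolic, -0.46 for mitochondrial and -0.32 for both-compartment synthetases. The eIF3 to eIF6 median was 0.19 with weights, 0.18 without both, and 0.037 to 0.19 leaving out each array. *eef-1G* turned positive with weights (0.17), cyclic loess (0.026), without both (0.27), without mutant replicate 4 (0.16) and without wild-type replicates 2 (0.04) or 4 (0.08), within a range of -0.16 to 0.16 leaving out each array. The cause of these shifts was not tested. Compartments from RefSeq product names were not run, since the table used here holds none. Of the named members only *ife-5* had a mean under 5 in both strains. Whether background limited its difference was not tested.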
